A study of Homo sapiens with 10 samples.

Results

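Desmosomes are the adhesive junctions that tie the intermediate filaments of one epithelial cell to those of its neighbour. The desmosome genes examined here were a named set of 10: the desmosomal cadherin genes DSG2, DSC2 and DSC3, the armadillo protein genes JUP, PKP2 and PKP3, the plakin genes DSP, PPL and EVPL, and PERP. They were listed by name, with earlier results of these data known, and make up 10 of the 58884 genes counted. All 10 were detected in every library and all 10 were among the 19279 genes that passed the filter on low counts.

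RNA of HCT116 cells, a human colorectal carcinoma line, was compared with RNA of DNMT1 KO cells, a derivative of HCT116 with a targeted DNMT1, which encodes the enzyme that restores CG methylation after replication. The study describes this derivative as a hypomorph in which deletion of exons leaves a low amount of shortened DNMT1 protein, and as 1 line grown as repeated cultures, so differences between genotypes are differences between 2 lines. No treatment is given for either group. HCT116 is represented by 6 libraries (replicates 1, 2, 3, 7, 8 and 9) and DNMT1 KO by 4 (replicates 1 to 4). Per the labels, both groups share batch 1 (replicate 1) and batch 2 (replicates 2 and 3), while DNMT1 KO replicate 4 is of batch 3 and HCT116 replicates 7, 8 and 9 are of batch 4. Library totals were 35418732 to 85991812 counts in HCT116 and 26700853 to 55732013 counts in DNMT1 KO. DNMT1 itself fell from 153 ± 64.2 CPM (counts relative to the TMM-scaled library total, SD, n = 6) to 19.5 ± 3.68 CPM (SD, n = 4), a change of -2.97 on the log2 scale (SE 0.33, edgeR adjusted p = 1.74e-05). In libraries of bulk RNA, fewer cells that express a gene and less RNA per cell cannot be told apart.

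In a desmosome, desmogleins and desmocollins bridge the gap between cells through their calcium-dependent outer domains. Their inner tails bind plakoglobin (JUP) and the plakophilins, which in turn hold desmoplakin (DSP), and desmoplakin reaches the keratin filaments. Simple epithelia such as that of the colon rely on DSG2 and DSC2, whereas DSC3, DSG1, DSG3 and DSC1 are best known from stratified epithelia such as skin. Periplakin (PPL) and envoplakin (EVPL) form part of the cornified envelope of skin and associate with desmosomes, and PERP is a tetraspan membrane protein needed for desmosome assembly in stratified epithelia.

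The 3 cadherin genes lie in the desmosomal cadherin cluster on chromosome 18. In GENCODE release 44 on hg38, DSC3 (ENSG00000134762) spans chr18:30989365-31042815 on the minus strand, DSC2 (ENSG00000134755) spans chr18:31058840-31102522 on the minus strand and DSG2 (ENSG00000046604) spans chr18:31498177-31549008 on the plus strand. Between DSC3 and DSC2 lie 16024 bases, and between DSC2 and DSG2 lie 395654 bases. Because DNMT1 copies methylation at CG dinucleotides, the sequence just upstream of these genes is shown, 5′ to 3′ on the gene's strand, with each CG in capitals. RefSeq promoter windows (GRCh38.p14) were used, and the printed part lies outside the annotated gene: chr18:31042816-31042992 for DSC3, chr18:31102523-31102671 for DSC2 and chr18:31497927-31498176 for DSG2.
DSC3: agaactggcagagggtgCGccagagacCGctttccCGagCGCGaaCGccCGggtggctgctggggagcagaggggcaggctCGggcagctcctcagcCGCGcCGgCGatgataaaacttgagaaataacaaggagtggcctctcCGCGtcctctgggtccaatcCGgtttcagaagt
DSC2: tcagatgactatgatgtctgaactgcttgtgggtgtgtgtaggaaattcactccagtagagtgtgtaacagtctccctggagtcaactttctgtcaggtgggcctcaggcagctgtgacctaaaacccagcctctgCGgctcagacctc
DSG2: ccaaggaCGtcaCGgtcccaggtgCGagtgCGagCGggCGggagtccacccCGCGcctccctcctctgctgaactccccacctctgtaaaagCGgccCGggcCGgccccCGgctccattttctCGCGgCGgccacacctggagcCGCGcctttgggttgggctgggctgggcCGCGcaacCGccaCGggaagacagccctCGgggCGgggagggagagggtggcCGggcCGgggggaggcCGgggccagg
The printed stretches hold 15 CG in 177 bases for DSC3, 1 CG in 149 bases for DSC2 and 26 CG in 250 bases for DSG2. Counted over the full 250 bases before the RefSeq start, DSC3 had 18 CG, DSC2 had 12 and 19 before its 2 listed starts, and DSG2 had 26. The median of all 35116 such windows was 11 (quartiles 3 and 23), and 19.6% of them held at least as many CG as DSG2. RefSeq windows were matched for 6 of the 10 genes, in 8 windows, of which DSP had 33 CG, PERP 34, and JUP 13 and 17. PKP2, PKP3, PPL and EVPL were not matched. The Snail and ZEB binding motif CAGGTG, searched on both strands, was in 4 of the 8 windows, those of DSC2 (1 match in 1 of its windows), DSG2, DSP and JUP (2 matches each), against 17.5% of all windows. The grainyhead core ACCGGT, which reads the same on both strands and does not overlap that motif, was in 0 of the 8 and in 1.45% of all windows. Methylation was not measured in these files, so nothing can be said here of the state of these CG.

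Across the 10 genes, 1 was called lower in DNMT1 KO and none was called higher. At an unadjusted edgeR p under 0.05 were 7 of the 10, all lower, against 5327 of the 19279 genes tested. DESeq2, run without the filter on low counts, called 2 lower, against 4.41% of the 35231 genes with a count. A gene is called here, as the study defines it, at an edgeR quasi-likelihood p under 0.05 after Benjamini-Hochberg adjustment over all genes tested, provided that the log2 fold change exceeds 1 in size. Of all genes tested, 6.49% were called lower and 7.42% higher, 13.9% in all, so the count of 1 in 10 is near that background. The called gene was DSC3. DSG2 and PKP2 also had an adjusted p under 0.05 with changes just short of the fold limit, which makes 3 of 10 lower at that p alone against 7.61% of all genes. The same 3 were those in which every DNMT1 KO library lay below every HCT116 library, against 6.79% of all genes. The log2 fold change was below 0 in 9 of 10, against 54.4% of all genes, with a median of -0.89 against -0.07. When libraries were scaled by their totals alone, these medians were -0.68 and 0.14, and each change below is to be read against the median of all genes.

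**Figure D1:**
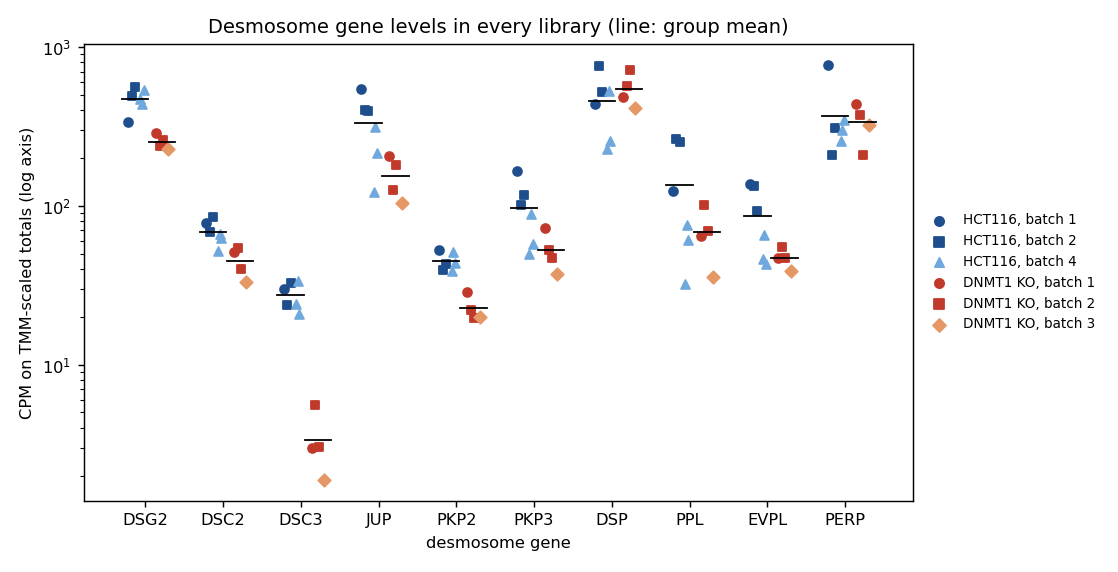
Levels of the 10 desmosome genes in every library, as CPM on TMM-scaled totals on a log axis, coloured by genotype and batch, with a line at each group's mean. DSC3 sits at 20.8 to 33.7 CPM in HCT116 and at 1.88 to 5.57 CPM in DNMT1 KO, while DSP and PERP overlap widely between the groups and PPL and EVPL spread by batch within HCT116.

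Among the desmosomal cadherins, DSC3, which encodes desmocollin 3, showed the largest difference of the 10 genes. Its lowest, median and highest HCT116 levels were 20.8, 27.1 and 33.7 CPM. The DNMT1 KO replicates 1 to 4 had 2.98, 3.02, 5.57 and 1.88 CPM. The groups were thus far apart, with the highest DNMT1 KO library well under the lowest HCT116 library. The mean fell from 27.5 ± 5.28 CPM (SD, n = 6) to 3.36 ± 1.57 CPM (SD, n = 4), which is 8.17-fold lower. On the log2 scale DSC3 fell by 3.02 (SE 0.33, adjusted p = 1.24e-05 by edgeR). Raw counts were 885 to 2419 in HCT116 and 54 to 351 in DNMT1 KO, so DSC3 was read from fewer counts than any other gene of the set, the next smallest being 575. The call held in all 24 alternative fits, between -3.36 and -2.70 (adjusted p 6.23e-20 to 0.0142). With batch as a term DSC3 was at -2.91 (adjusted p = 1.14e-05), in batch 2 alone it was -2.70 (adjusted p = 0.0142), and the single pair of batch 1 differed by -3.13 on the log2 scale.

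DSG2, the main desmoglein of simple epithelia, also fell, by less than the fold limit. HCT116 libraries had 335 CPM at the lowest, 482 at the median and 562 at the highest. DNMT1 KO replicates 1 to 4 had 287, 261, 238 and 228 CPM. All 4 lay under the HCT116 range, although replicate 1 lay close to the lowest HCT116 library, which is of the same batch. DSG2 fell from 473 ± 80.7 CPM to 254 ± 26.4 CPM (SD, n = 6 and 4), a log2 fold change of -0.90 (SE 0.22, edgeR adjusted p = 0.0106). Within batch 1 the difference was -0.22 and within batch 2 it was -1.08 (adjusted p = 0.0945). Adding batch as a term gave -0.80 (edgeR adjusted p = 0.076), so the adjusted p was no longer under 0.05 there. The range over the 24 alternatives was -1.08 to -0.70, with an adjusted p under 0.05 in 19 of them. The antisense gene DSG2-AS1 shares 171 exon bases with DSG2 and the counting is not stated to use strand, but DSG2-AS1 had 4 to 49 counts where DSG2 had 6559 to 40322.

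DSC2, the desmocollin of simple epithelia, did not pass the test. HCT116 levels were 51.8, 67.4 and 84.7 CPM at the lowest, median and highest library. The DNMT1 KO levels were 50.9, 40.1, 54.5 and 33.2 CPM in replicates 1 to 4. Thus 3 of the 4 DNMT1 KO libraries lay below the lowest HCT116 library and replicate 3 lay within the HCT116 range. Means were 68.7 ± 11.6 and 44.7 ± 9.81 CPM (SD, n = 6 and 4), with a log2 fold change of -0.62 (SE 0.22, edgeR adjusted p = 0.0767). The sign was negative in all 24 alternatives (-0.79 to -0.40), and the adjusted p was under 0.05 in 1 of them, the fit without HCT116 batch 4 (-0.79, adjusted p = 0.046).

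The other members of these families, which are typical of stratified epithelia and hair, were close to absent in both groups. Summed over libraries of HCT116 and DNMT1 KO, DSG1 had 16 and 24 counts, DSG3 had 8 and 4, DSG4 had 32 and 1, DSC1 had 23 and 9, and PKP1 had 8 and 14. None of these 5 genes passed the filter on low counts (DESeq2, run without it, called DSG4 lower), and no library held more than 18 counts of any of them. Of the cadherins best known from stratified epithelia, DSC3 alone of the 4 named above was measured well above a few counts in HCT116.

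Among the armadillo proteins, PKP2, the plakophilin of simple epithelia and heart, was lower in every DNMT1 KO library. PKP2 (ENSG00000057294, chr12:32790745-32896798, minus strand) had 38.8, 43.2 and 52.9 CPM at the lowest, median and highest HCT116 library. DNMT1 KO replicates 1 to 4 had 28.7, 19.8, 22.1 and 19.98 CPM, with no overlap between the groups. Its mean fell from 44.8 ± 5.84 CPM to 22.6 ± 4.16 CPM (SD, n = 6 and 4). This is a log2 fold change of -0.98 (SE 0.21, adjusted p = 0.00446 by edgeR), just short of the fold limit. It was called in 3 of 24 alternatives and had an adjusted p under 0.05 in 21 (range -1.10 to -0.77, adjusted p 0.000276 to 0.116). The within-batch values were -0.87 in batch 1 and -0.98 in batch 2 (adjusted p = 0.116), and a batch term gave -0.95 (adjusted p = 0.0133). PKP2 also varied little among HCT116 libraries of different batches, by -0.04 on the log2 scale between batch 4 and batches 1 and 2 (adjusted p = 0.943).

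JUP encodes plakoglobin, which sits in both desmosomes and adherens junctions. JUP (ENSG00000173801, chr17:41754604-41786931, minus strand) ranged from 123 CPM through a median of 353 to 544 CPM in HCT116. The DNMT1 KO libraries had 208, 181, 126 and 105 CPM. The groups overlapped through HCT116 replicate 9 alone, at 123 CPM. Means were 332 ± 149 and 155 ± 47.7 CPM (SD, n = 6 and 4), and the log2 fold change of -1.10 (SE 0.37) had an edgeR adjusted p of 0.0559. Within batches the difference was larger, at -1.39 in batch 1 and -1.37 in batch 2 (adjusted p = 0.0552). A batch term gave -1.38 (adjusted p = 0.00843) and called JUP lower. JUP was called in 10 of the 24 alternatives, which ranged from -1.53 to -0.45.

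PKP3 encodes a plakophilin found in most desmosomes. PKP3 (ENSG00000184363, chr11:392614-404908, plus strand) had 49.6, 95.4 and 165 CPM at the lowest, median and highest HCT116 library, and 72.9, 46.9, 52.6 and 37.2 CPM in DNMT1 KO replicates 1 to 4. The groups overlapped, and the 2 lowest HCT116 values, 57.6 and 49.6 CPM, were both of batch 4. PKP3 differed by -0.88 on the log2 scale (SE 0.33, adjusted p = 0.0889 by edgeR). The difference was -1.17 within batch 1, -1.13 within batch 2 (adjusted p = 0.0698) and -1.15 under a batch term (adjusted p = 0.00772). PKP3 was called in 6 of 24 alternatives (-1.29 to -0.28).

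Of the plakins, DSP, the obligate desmosomal plakin that anchors keratin filaments, did not differ by more than the spread between libraries. DSP (ENSG00000096696, chr6:7541338-7586714, plus strand) had 229, 480 and 756 CPM at the lowest, median and highest HCT116 library. The DNMT1 KO values of 484, 713, 566 and 413 CPM all lay inside that range. The difference was 0.26 on the log2 scale (SE 0.32, adjusted p = 0.659 by edgeR), and DSP was the single gene of the 10 with a value above 0. It was 0.14 within batch 1, 0.01 within batch 2 (adjusted p = 0.996) and 0.05 under a batch term (adjusted p = 0.956). DSP was called in 0 of 24 alternatives, in which the value ran from -0.07 to 0.72 (adjusted p 0.112 to 0.996).

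PPL and EVPL encode the partner plakins periplakin and envoplakin. PPL (ENSG00000118898, chr16:4882507-4960741, minus strand) had 32.3, 99.6 and 262 CPM at the lowest, median and highest HCT116 library, and 65.0, 69.6, 102 and 35.7 CPM in DNMT1 KO. All 4 DNMT1 KO libraries lay below the HCT116 libraries of batches 1 and 2, at 124 to 262 CPM, and overlapped those of batch 4, at 32.3 to 75.5 CPM. PPL differed by -0.98 on the log2 scale (SE 0.52, adjusted p = 0.242 by edgeR). Its within-batch values were -0.92 in batch 1 and -1.58 in batch 2 (adjusted p = 0.0336). A batch term called it lower at -1.37 (adjusted p = 0.00738).
EVPL (ENSG00000167880, chr17:76004502-76027306, minus strand) had 42.9, 79.3 and 136 CPM at the lowest, median and highest HCT116 library. The DNMT1 KO libraries had 46.7, 47.1, 54.99 and 38.8 CPM, close together and level with the lower HCT116 libraries. EVPL differed by -0.88 on the log2 scale (SE 0.34, adjusted p = 0.0989 by edgeR). It was -1.54 within batch 1, -1.14 within batch 2 (adjusted p = 0.0871) and -1.28 under a batch term (adjusted p = 0.00366, called lower). Each of the 2 genes was called in 6 of 24 alternatives, PPL between -1.65 and 0.32 and EVPL between -1.37 and -0.10.

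PERP, the tetraspan membrane protein gene, also showed no call. PERP (ENSG00000112378, chr6:138088505-138107419, minus strand) had 208, 304 and 774 CPM at the lowest, median and highest HCT116 library, where 774 CPM was replicate 1 and the others ended at 348 CPM. DNMT1 KO replicates 1 to 4 had 440, 208, 371 and 325 CPM, within the HCT116 range apart from a near tie at its lower end. PERP differed by -0.12 on the log2 scale (SE 0.35, adjusted p = 0.856 by edgeR), which turned to 0.27 (adjusted p = 0.539) without HCT116 replicate 1 and to 0.10 (adjusted p = 0.889) with library totals alone. The value was -0.82 in the single pair of batch 1 and 0.17 within batch 2 (adjusted p = 0.887).

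HCT116 libraries of different batches differed in some of these genes as much as the genotypes did. In HCT116 alone, batch 4 (3 libraries) was compared with batches 1 and 2 (3 libraries), and 2 of the 10 genes, PPL and EVPL, were called lower in batch 4, against 4.94% of all genes tested. PPL was 56.1 ± 21.97 CPM in batch 4 and 213 ± 77.2 CPM in batches 1 and 2 (SD, n = 3 each), a log2 difference of -1.95 (SE 0.40, edgeR adjusted p = 0.0114). EVPL was 51.7 ± 12.3 and 121 ± 24.1 CPM (SD, n = 3 each), a log2 difference of -1.24 (SE 0.32, edgeR adjusted p = 0.0299). JUP at -1.06 (adjusted p = 0.0897) and PKP3 at -0.99 (adjusted p = 0.079) had similar differences that did not pass. In contrast, DSC3 at -0.14 (adjusted p = 0.806), PKP2 at -0.04 (adjusted p = 0.943) and DSG2 at 0.04 (adjusted p = 0.957) were near 0. The sign was negative in 9 of the 10 genes, against 9268 of the 18656 genes tested, with a median of -0.65 against 0.01 over all genes. All 3 batch 4 libraries lay below all 3 others in 5 of the 10 genes, against 14.4% of all genes. The count of called genes depended on single libraries, as did the share of all genes called lower. Without HCT116 replicate 2 the count was 0, against 1.5% of all genes called lower. Without replicate 9 it was also 0, against 1.01%. The count was 1 without replicate 3, 7 or 8, against 2.91, 1.3 and 1.96%, and 2 without replicate 1, against 8.84%. At an unadjusted edgeR p under 0.05 were 4 of the 10 with all 6 libraries, against 4876 of the 18656 genes tested. Without replicate 2 there were 4 such genes and without replicate 9 there were 2. For these 2 fits the share of all genes at that p was not determined. DESeq2 on all 6 libraries called 3, against 4.46% of the 31815 genes with a count in them.

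The genes thus differed in how far their comparison rested on the choice of HCT116 libraries. With HCT116 batch 4 left out, 5 genes were called lower (DSC3, JUP, PPL, EVPL and PKP3), against 7.63% of all genes. With HCT116 batch 4 as the sole HCT116 libraries, 1 was called, DSC3, against 8.64%. DSC3 was -3.09 without batch 4 (adjusted p = 0.000228) and -2.92 with batch 4 alone (adjusted p = 8.56e-06). DSG2 was -0.87 (adjusted p = 0.0288) and -0.89 (adjusted p = 0.013), and PKP2 was -0.999 (adjusted p = 0.0151) and -0.93 (adjusted p = 0.00906). These 3 genes therefore kept both sign and an adjusted p under 0.05 with either set of HCT116 libraries. PPL, by contrast, was -1.65 (adjusted p = 0.0106) without batch 4 and 0.32 (adjusted p = 0.518) with batch 4 alone. JUP went from -1.53 (adjusted p = 0.00352) to -0.45 (adjusted p = 0.325), PKP3 from -1.29 (adjusted p = 0.00913) to -0.28 (adjusted p = 0.484), and EVPL from -1.37 (adjusted p = 0.00232) to -0.10 (adjusted p = 0.788). With batch as a term, a fit in which only batches 1 and 2 inform the difference between genotypes, 5 of the 10 were called lower (DSC3, JUP, PPL, EVPL and PKP3), against 7.74% of all genes. Batch 4 holds no DNMT1 KO library and batch 3 no HCT116 library among those used, so for these batches the batch and the genotype cannot be told apart. In batch 2 alone, 8 of the 10 genes were lower in DNMT1 KO, the exceptions being DSP and PERP, against 9197 of the 19565 genes tested. The same 8 were also lower in the single pair of batch 1, as was PERP. For that pair the share over all genes was not determined.

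**Figure D2:**
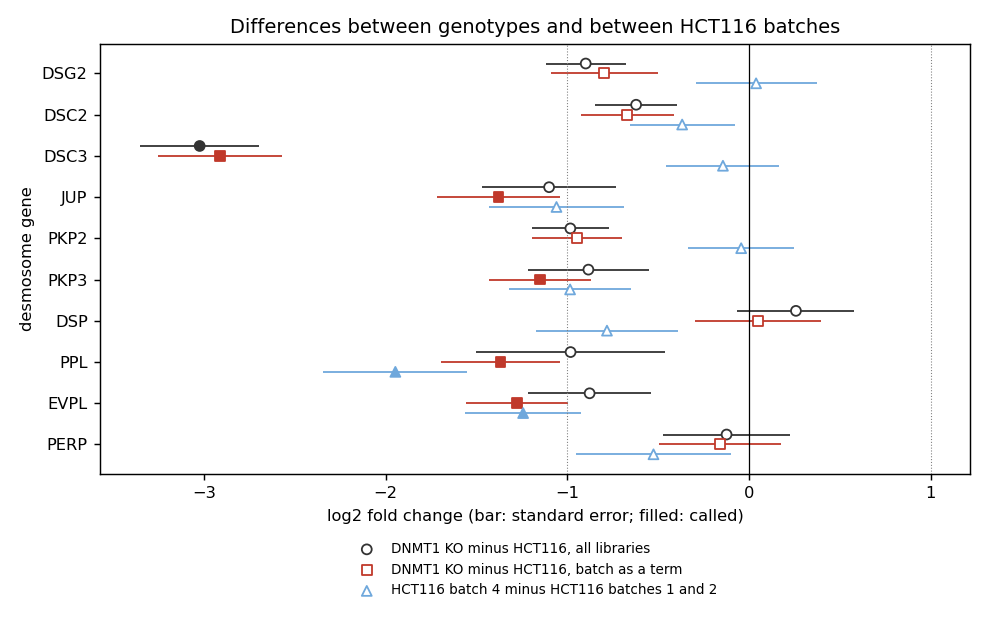
Log2 fold changes of the 10 desmosome genes with standard errors, for DNMT1 KO against HCT116, for the same comparison with batch as a term and for HCT116 batch 4 against HCT116 batches 1 and 2, with filled symbols for called genes. DSC3 lies near -3 in both genotype comparisons and near 0 between HCT116 batches, whereas PPL at -1.95 and EVPL at -1.24 differ between HCT116 batches as well.

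Levels between genes were compared per kilobase of exon, as CPM divided by the exon length in kb. Reads were aligned without spliced alignment, and the 10 genes differ in exon blocks, from 24 in DSP to 3 in PERP. The part of this in the order of genes, and in the shares and ratios below, was not tested. In HCT116 the order of mean levels was PERP (87.2 ± 49.0), DSG2 (78.1 ± 13.3), JUP (67.2 ± 30.2), DSP (45.3 ± 19.5), PKP3 (25.5 ± 11.1), PPL (17.5 ± 12.9), EVPL (11.5 ± 5.52), PKP2 (6.36 ± 0.829), DSC2 (5.50 ± 0.925) and DSC3 (3.57 ± 0.686), all as SD with n = 6. Each of the 9 neighbouring pairs in that order overlapped in its ranges over libraries. In DNMT1 KO the order by level per kb was PERP (80.0 ± 23.3), DSP (54.1 ± 12.8), DSG2 (41.9 ± 4.35), JUP (31.3 ± 9.64), PKP3 (13.8 ± 3.98), PPL (8.83 ± 3.51), EVPL (6.24 ± 0.883), DSC2 (3.57 ± 0.784), PKP2 (3.21 ± 0.590) and DSC3 (0.437 ± 0.203), as SD with n = 4. There 6 of 9 neighbouring pairs overlapped, and JUP above PKP3, EVPL above DSC2 and PKP2 above DSC3 did not. DSC3 was the lowest in both lines. PERP was the highest in DNMT1 KO, whereas in HCT116 it led by the mean alone through replicate 1, at 184 per kb, and by the median DSG2 at 79.5 stood above PERP at 72.5. DSP was below JUP and DSG2 in mean level per kb in HCT116 and above both in DNMT1 KO.

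The make-up of the desmosomal RNA is described by shares and ratios of these levels. Per kb of exon, DSC3 supplied 34.9 to 45.2% of the desmocollin RNA (DSC2 plus DSC3) in the 6 HCT116 libraries, a mean of 39.3 ± 4.04% (SD, n = 6). In DNMT1 KO replicates 1 to 4 it supplied 8.68, 10.9, 14.2 and 8.41%, a mean of 10.6 ± 2.70% (SD, n = 4). The 2 sets of libraries did not overlap in this share. The ratio of DSP to JUP per kb was 0.717 ± 0.210 in HCT116 (0.396 to 0.922) and 1.81 ± 0.459 in DNMT1 KO (1.15, 1.94, 2.21 and 1.94), again without overlap, so that desmoplakin RNA was below plakoglobin RNA in each HCT116 library and above it in each DNMT1 KO library. PKP2 made up 21.8 ± 6.52% of the plakophilin RNA (PKP2 plus PKP3) in HCT116 and 19.2 ± 2.21% in DNMT1 KO, with overlapping ranges. DSG2 made up 89.3 ± 2.72% of the 3 cadherins in HCT116 and 91.3 ± 1.91% in DNMT1 KO, also with overlap. These shares were chosen after the values were known and are given as a description without a test.

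**Figure D3:**
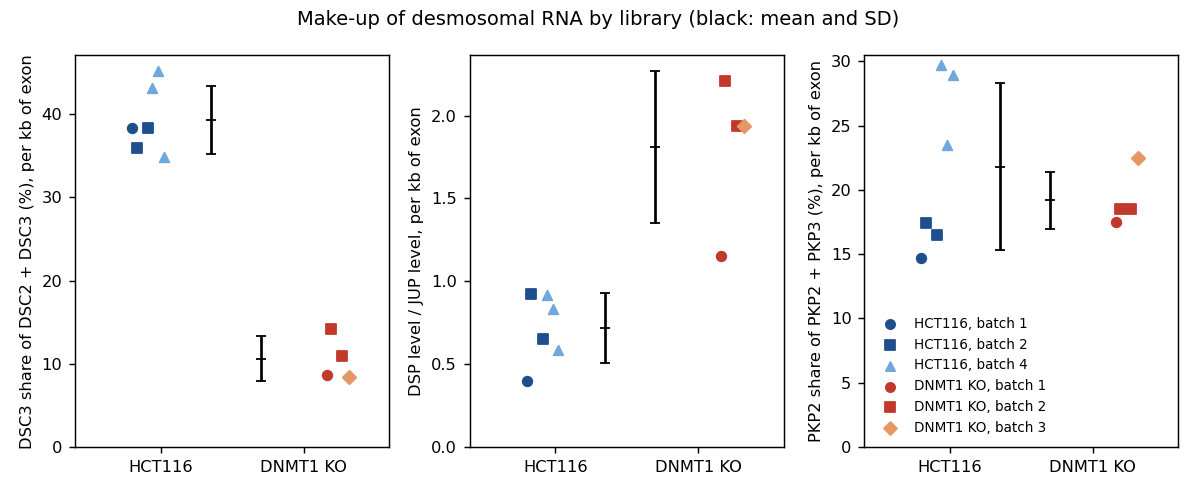
Make-up of desmosomal RNA per kb of exon in each library, with the mean and SD of each group in black and colours for genotype and batch. The DSC3 share of desmocollin RNA is 34.9 to 45.2% in HCT116 and 8.41 to 14.2% in DNMT1 KO, and the ratio of DSP to JUP is 0.396 to 0.922 in HCT116 and 1.15 to 2.21 in DNMT1 KO, each without overlap between the groups.

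The partners of the desmosome were examined as lists of related genes, beside the same 13.9% of all genes called. Over all genes, 5327 of the 19279 tested were at an unadjusted edgeR p under 0.05. Of the 35231 genes with a count, DESeq2 called 4.41% lower and 10.4% in either direction. Between HCT116 batch 4 and batches 1 and 2, edgeR called 4.94% of the genes tested lower. The keratins of simple epithelia, which desmoplakin anchors, included 3 genes called lower and 0 called higher of 5 tested (4 of the 5 at an unadjusted p under 0.05, and 4 called lower by DESeq2), with a median log2 fold change of -2.29. KRT8 fell from 1674 ± 496 to 260.0 ± 70.9 CPM and its partner KRT18 from 1148 ± 454 to 234 ± 61.8 CPM (SD, n = 6 and 4), with log2 fold changes of -2.69 (adjusted p = 3.12e-05) and -2.29 (adjusted p = 0.000257). KRT7 fell from 11.4 ± 9.85 to 0.918 ± 0.309 CPM, a log2 fold change of -3.64 (adjusted p = 0.00202). KRT19 was at -1.06 (adjusted p = 0.0763) and KRT80 at -0.14 (adjusted p = 0.921). With HCT116 batches 1 and 2 left out, KRT80 turned to 1.91 (adjusted p = 0.00389) and was called higher, beside 3 keratins called lower. In that fit 8.64% of all genes were called lower and 21% in either direction. KRT20 and KRT23 were listed at 0 in all libraries, so nothing can be read of them. In HCT116 batch 4 against batches 1 and 2, KRT7 and KRT80 were called lower, against 4.94% of all genes, and KRT8 and KRT18 were not.

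Of the 4 plakins outside the desmosome plaque, none was called in either direction by edgeR (1 at an unadjusted p under 0.05) or by DESeq2, with a median of -0.50. PLEC, which encodes plectin, was at -0.53 (adjusted p = 0.432) and MACF1 at -0.69 (adjusted p = 0.273). PLEC was called lower with batch as a term, at -1.23 (adjusted p = 0.0235), and was also called lower in HCT116 batch 4, at -1.40.

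Among 8 tested genes of desmosome assembly and turnover, 1 was called lower and 0 higher (2 at an unadjusted p under 0.05, and 1 called by DESeq2), with a median of -0.22. The called gene was ADAM9, which encodes a membrane metalloprotease. It fell from 68.9 ± 18.1 to 32.5 ± 7.09 CPM (SD, n = 6 and 4), a log2 fold change of -1.08 (adjusted p = 0.0077), and to -1.01 (adjusted p = 0.0177) with batch as a term. ATP2A2, the calcium pump of the endoplasmic reticulum, was at -0.10 (adjusted p = 0.812) and ADAM10, a protease that cleaves cadherins, at -0.25 (adjusted p = 0.588). PRKCA, the kinase tied to desmosome remodelling, was at 0.69 (adjusted p = 0.132) and was picked for mention after its values were seen. FLOT1 and CDSN were listed at 0 in all 10 libraries, so nothing can be read of them.

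The transcription regulators of epithelial junction genes held 7 called genes of 14 tested, 5 lower and 2 higher, with a median of -0.12 (0.28 with HCT116 batches 1 and 2 left out). ELF3, an epithelial ETS factor, fell from 92.4 ± 56.2 to 0.222 ± 0.0419 CPM (SD, n = 6 and 4). GRHL2, a grainyhead factor, had 18.4 to 63.1 CPM (mean 37.3) in the HCT116 libraries and fell to 0.469 ± 0.351 CPM (SD, n = 4). Their log2 fold changes were -8.70 (adjusted p = 3.55e-07) and -6.25 (adjusted p = 2.58e-06). TWIST1, known as a promoter of mesenchymal states, had 857 counts over the HCT116 libraries (2.58 ± 0.303 CPM) and 0 over the DNMT1 KO libraries, and was at least 161-fold lower against a floor of 3 counts over the DNMT1 KO group. In the other direction SNAI2, a Snail-family repressor, rose from 0.563 ± 0.491 to 8.45 ± 2.23 CPM, a log2 fold change of 3.93 (adjusted p = 6.42e-05). The other called genes were OVOL1 and KLF5, both lower, and ZEB1, higher, from 5.61 ± 2.82 to 43.5 ± 14.3 CPM. KLF5 was at -1.52 (adjusted p = 0.0202) and KLF4 at -0.56 (adjusted p = 0.56). In HCT116 batch 4 against batches 1 and 2, 3 of the 14 genes were called lower, ELF3, KLF5 and KLF4, against 4.94% of all genes. Of these, KLF4 was not called between the genotypes.

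The adherens junction, which shares JUP with the desmosome, had 3 genes called lower and 0 called higher of 11 tested (4 of the 11 at an unadjusted p under 0.05, and 3 called lower by DESeq2), with a median of -0.50. CDH1, the gene of E-cadherin, fell from 148 ± 121 to 11.5 ± 5.36 CPM and CDH3, the gene of P-cadherin, from 217 ± 91.0 to 22.2 ± 7.57 CPM (SD, n = 6 and 4). Their log2 fold changes were -3.67 (adjusted p = 0.00138) and -3.29 (adjusted p = 2.89e-05), and NECTIN4 was at -2.08 (adjusted p = 0.0261). The catenin genes of highest level did not pass, with CTNNB1 at 0.58 (adjusted p = 0.0997) and CTNND1 at -0.22 (adjusted p = 0.699). CDH1 was also called lower in HCT116 batch 4, at -2.38.

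The hemidesmosome, which ties keratins to the basement membrane and not to a neighbouring cell, had 4 genes called lower and 0 called higher of 6 tested (all 6 at an unadjusted p under 0.05, and 5 called lower by DESeq2), with a median of -2.78. ITGB4 and ITGA6, the integrin pair of this junction, were at -3.48 (adjusted p = 0.000635) and -1.34 (adjusted p = 0.00217). CD151, a tetraspanin of this junction, was at -0.56 (adjusted p = 0.108). The laminin genes LAMB3 and LAMA3 were at -4.99 (adjusted p = 0.00102) and -4.76 (adjusted p = 0.00267). ITGB4 fell from 777 ± 616 to 69.4 ± 14.3 CPM (SD, n = 6 and 4). In HCT116 batch 4 against batches 1 and 2, 4 of the 6 genes were called lower, against 4.94% of all genes. These were ITGB4, COL17A1, LAMA3 and LAMB3, whereas ITGA6 was at -0.10 and was not called.

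**Figure D4:**
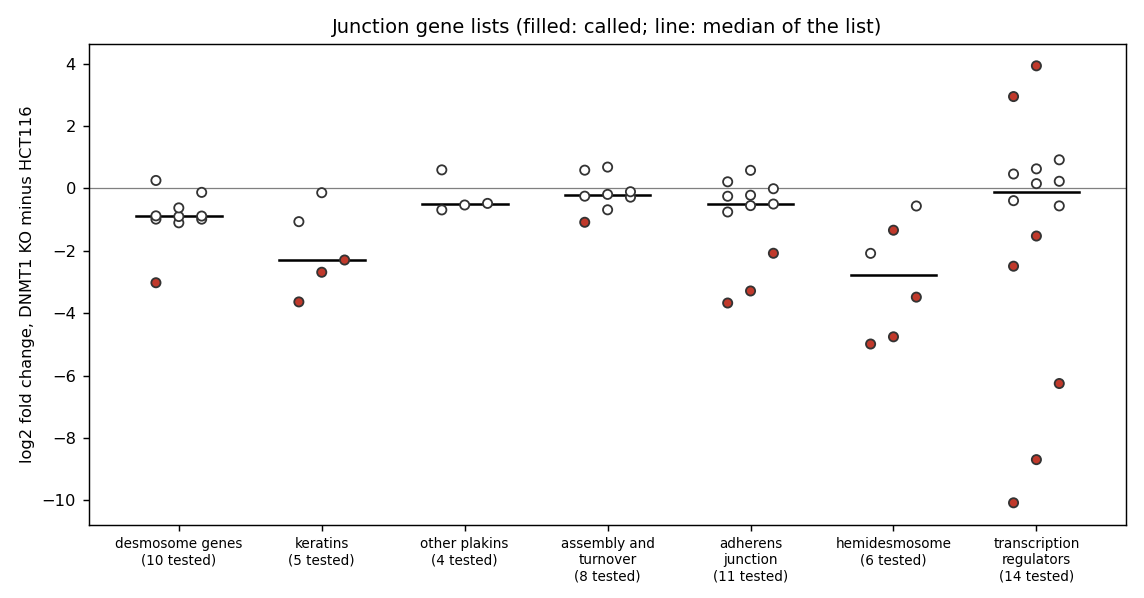
Log2 fold changes of DNMT1 KO against HCT116 for each tested gene of the desmosome set and the 6 lists of related genes, with filled symbols for called genes and a line at the median of each list. The desmosome genes lie mostly between -1.10 and 0.26 with DSC3 apart at -3.02, above the medians of the keratins at -2.29 and the hemidesmosome at -2.78.

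Marker genes of cell types were read in both groups, which are cultures of a carcinoma line and its derivative. Of 7 colon epithelium markers, EPCAM, KRT8, KRT18 and CDH1 were abundant in HCT116 and VIL1, CDH17 and LGALS4, which define differentiated enterocytes, were below 1 CPM on average in both groups. Against the direction of the abundant markers, VIL1 was called higher, from 0.00928 ± 0.0227 to 0.609 ± 0.141 CPM (SD, n = 6 and 4, edgeR adjusted p = 0.000171). LGALS4 was also higher in DNMT1 KO by its mean, with overlapping ranges, but did not pass the filter on low counts. The summed level of the 7 was 1990 to 4440 CPM in HCT116 and 422 to 682 CPM in DNMT1 KO, with EPCAM falling from 307 ± 72.8 to 72.8 ± 14.5 CPM (SD, n = 6 and 4). The 6 fibroblast markers summed to 6.47 to 19.8 CPM in HCT116 and 16.6 to 21.4 CPM in DNMT1 KO, and COL3A1, LUM and PDGFRB were called higher at 4.83, 2.43 and 4.76 CPM. The most abundant of them, COL1A1, was at 12.5 ± 4.27 CPM in HCT116 and 6.72 ± 5.06 CPM in DNMT1 KO (SD, n = 6 and 4, log2 fold change -0.90, adjusted p = 0.183), while DCN and COL1A2 had 0 counts in HCT116 and 21 and 12 counts over the DNMT1 KO libraries. The 4 immune markers summed to 0.0902 to 0.651 CPM and 0.571 to 1.36 CPM, and the 3 endothelial markers to 0.107 to 0.743 CPM and 3.35 to 5.61 CPM, with PECAM1 and VWF called higher. The epithelial and endothelial sums did not overlap between the genotypes. Whether the levels of these markers bear on those of the desmosome genes was not tested.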

How the data were processed

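Poly(A)-selected, stranded RNA-seq libraries of 6 HCT116 and 4 DNMT1 KO cultures were used. Each deposited table holds unnormalised read counts per gene for one library. Per the paper's methods and the labels, the authors trimmed reads with Trim Galore 0.4.1, aligned them to hg38 by Bowtie2, an aligner without spliced alignment, removed reads of low mapping quality and assigned exonic reads to genes with featureCounts, for which no strand setting is named. The annotation release is not given in the sources used here. Of the 58884 genes in each table, 58472 are in GENCODE release 44, which supplied positions. A further 3 tables of HCT116 replicates have no sample in the series' list and were not used.

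The counts were fitted with the edgeR package (version 4.0.16, R 4.3.3), using filterByExpr, TMM factors and a two-sided quasi-likelihood test on genotype alone, with Benjamini-Hochberg adjustment over the 19279 genes tested. Calls required an adjusted p under 0.05 together with a log2 fold change larger than 1 in size. Standard errors are the size of the change over the square root of the F statistic. CPM are on TMM-scaled totals, and levels between genes are per kilobase of the tables' exon length. The floor for a group without counts was 3 counts. Among genes with 1 to 10 counts, 64.4 to 70.0% of values were even in 9 libraries and 39.9% in DNMT1 KO replicate 4, so both mates of a pair may have been counted in those 9. This was not tested further, and an alternative halved the counts. Scripts were tested on simulated data.

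The desmosome genes, the related lists and the tests were chosen with earlier results of these data known. Named genes were all 10 desmosome genes, the 5 other desmosomal cadherin and plakophilin genes, up to 4 called genes by size of change and the 2 of highest level in each list, DNMT1 and genes that overlap a desmosome gene. Other listed genes are given by counts and medians, except 2 that were left out of the lists and are not reported here. The study states independent cultures, but of 1 line per genotype, so p-values measure the spread between cultures. Alternatives were RLE factors, library totals alone, other filters, DESeq2 1.42.0, a batch term, single batches, the likelihood ratio test, each library left out and a replicate block. Fits without HCT116 batch 4, or without HCT116 batches 1 and 2, were added after seeing the data.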

Additional observations from a re-analysis of the deposited data

Results flagged for a closer look

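In groups of 4 and 6 libraries, values that stood apart from the rest of their group by Dixon's test were sought among the desmosome genes and the related lists. Of 118 groups tested, 9 held such a value, where chance flags about 1 in 20, or 5.9. PERP was at 774 CPM in HCT116 replicate 1, against 208 to 348 CPM in the other HCT116 libraries, and was the single desmosome gene with such a value. LAMA3 was at 29.4 CPM in HCT116 replicate 3, against 1.73 to 9.52 CPM in the others.

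DNMT1 KO replicate 3 held 6 of the 9 values, each of them the highest of its group. The hemidesmosome laminin genes LAMA3 and LAMB3 were at 0.794 and 8.44 CPM there, against highest values of 0.195 and 3.89 CPM in the other DNMT1 KO libraries. PRKCA was at 146 CPM (others 64.4 to 77.3 CPM), ADAM9 at 43.1 CPM (28.2 to 29.4 CPM), ADAM17 at 56.8 CPM (26.5 to 30.4 CPM) and KAZN at 24.9 CPM (19.04 to 19.98 CPM). In DNMT1 KO replicate 2, KRT80 had 18.4 CPM, where the others had 35.2 to 37.4 CPM. DNMT1 KO replicate 3 also had the highest DSC3 level of its group, at 5.57 CPM, which lay within the limit of that test.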

How the results depend on the processing

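DSC3 was called lower in all 24 alternative fits. The number of desmosome genes called, 1 as reported, is given with the share of all genes called lower, 6.49% as reported. It was 2 with DESeq2 (4.41%), 2 with the likelihood ratio test (7.46%), 2 in batch 2 alone (4.08%) and 3 with no filter (4.39%). For DESeq2 and for no filter the share is over 35231 genes, against 19279 in the fit as reported. The number was 5 with batch as a term (7.74%), 5 when only batches 1 and 2 were fitted (6.98%) and 5 with HCT116 batch 4 left out (7.63%). Leaving out 1 library gave 1 to 4, with 2 without DNMT1 KO replicate 1 (4.95%), 3 without HCT116 replicate 8 (6.25%) and 4 without HCT116 replicate 9 (6.63%). Between HCT116 batch 4 and batches 1 and 2, where 2 were called, leaving out 1 library gave 0 to 2. The share of all genes called lower ran from 1.01 to 8.84% in those fits. All genes called, 2682 as reported (13.9% of those tested), were 1500 with at least 10 counts in every library (9.77%). They were 1613 in batch 2 alone (8.24%) and 4172 with HCT116 batches 1 and 2 left out (21%). With 1 library left out they were 2201 to 2830 (11 to 14.7%). Of 240 values of single desmosome genes from alternative fits, 202 kept their direction and call and 31 gained a call. DSC3 alone, the single gene called as reported, could lose a call, and it kept it in its 24 fits. The single pair of batch 1 gives values without a test. The sign turned for DSP at -0.074 with HCT116 batch 4 left out, for PPL at 0.32 with HCT116 batches 1 and 2 left out, and for PERP at 0.19 in that same setting, 0.17 in batch 2 alone, 0.10 with library totals alone, 0.048 without DNMT1 KO replicate 2 and 0.27 without HCT116 replicate 1. DNMT1 was -3.69 in the single pair of batch 1. The cause of these movements was not tested beyond the fewer libraries or genes that each setting holds. Halving the counts left 1 desmosome gene called, against 6.64% of all genes called lower.

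Replicate numbers 1 to 3 are shared by the groups, but same-numbered libraries deviated from their group means with correlations of 0.55, -0.27 and 0.37, so the numbers were not taken to pair the samples. With a replicate block over replicates 1 to 3, 5 desmosome genes were called, and 2467 genes in all, with 6.61% of all genes called lower. In the same libraries without the block 5 desmosome genes were called, against 6.14% of all genes.

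Depth was not limiting for the desmosome genes, whose smallest count was 54. The spread between HCT116 libraries, 3 batches with 1 to 3 libraries each, limits what can be read for JUP, PKP3, PPL, EVPL, DSP and PERP.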
